A study of Mus musculus with 12 samples.

Results

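The genes described here are the 36 calcium handling and excitation-contraction coupling genes of the heart muscle cell, chosen by name from the 49568 rows of a table of raw read counts, and all 36 were matched and passed the filter on low counts. They fall into 7 roles: 7 genes of calcium entry at the cell surface, 9 of release from the sarcoplasmic reticulum (the internal calcium store), 3 of the junction between both membranes, 5 of reuptake and the counter-ion channels, 3 of extrusion, 5 of calmodulin and its kinase, and 4 of inositol trisphosphate (IP3) receptors and store-operated entry. RNA of cardiomyocytes from male mouse hearts was sequenced in 12 libraries, 3 in each of 4 groups. The dKO mice (MHC-MerCreMre/+; Mrtf-a-/-; Mrtf-bflox/flox, as labelled) lacked myocardin-related transcription factor (MRTF) A throughout the body and carried a floxed gene for MRTF-B, and the control mice were alphaMHC-MerCreMre/+ with no change to either factor named. Both carried a tamoxifen-inducible Cre under a promoter of heart muscle, and all mice received 3 daily injections of tamoxifen at 30 ug/g when 8 weeks old. The groups were dKO after transverse aortic constriction (TAC, which loads the left ventricle with pressure), dKO after sham surgery, control after TAC and control after sham. Hearts were taken 7 days after surgery at 11 weeks of age. The protocol places surgery at 10 weeks and the design text at 8 weeks. The labels do not say whether each library came from a separate animal, so p-values measure the spread between libraries, which may be partly technical.

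In each heartbeat the L-type calcium channel admits a small calcium current that opens the ryanodine receptor, and calcium released from the sarcoplasmic reticulum starts contraction. The pump SERCA, held back by phospholamban, returns calcium to the store, while the sodium-calcium exchanger removes the part that entered. Lower SERCA expression and slower calcium reuptake are long-known features of the failing and overloaded heart, and MRTFs are cofactors of serum response factor, which drives cytoskeletal and muscle genes.

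Total counts lay between 20082000 and 29675212 per library, which puts 3 counts, the floor used here, at 0.0935 to 0.184 CPM (the count relative to the library size, which is scaled by TMM factors). Mkl1, which encodes MRTF-A, had 2.22 to 2.93 CPM in dKO TAC and 2.15 to 3.2 CPM in dKO sham, against 9.32 to 16 CPM in control TAC and 7.58 to 11.4 CPM in control sham, and Mkl2 (MRTF-B), whose reads are counted over the whole gene and not over the floxed exons alone, had 18.1 to 28.1 CPM and 15.2 to 26.5 CPM against 30.0 to 37 CPM and 32.6 to 44.1 CPM in the same order. A pair of dKO libraries stood apart by transcript length. Among the 36 genes, the deviation from the other replicates of the group was higher for short than for long transcripts in dKO TAC replicate 2 (Spearman rho across the genes -0.613) and dKO sham replicate 1 (-0.784), against -0.105 to 0.006 in the control libraries. In dKO sham replicate 1 the 10 genes with under 3 kb of exons had a median log2 deviation of 0.62, and the 14 genes with 10 kb or more had -0.87. In dKO TAC replicate 2 the same medians were 0.12 and -0.60. Results that rest on these libraries, called the length-skewed pair, are given with and without both. Mitochondrially encoded genes took 15.3% of counts in dKO TAC replicate 2 and 16.5% in dKO sham replicate 1, against 23.2% to 32.6% in the other libraries.

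**Figure D1:**
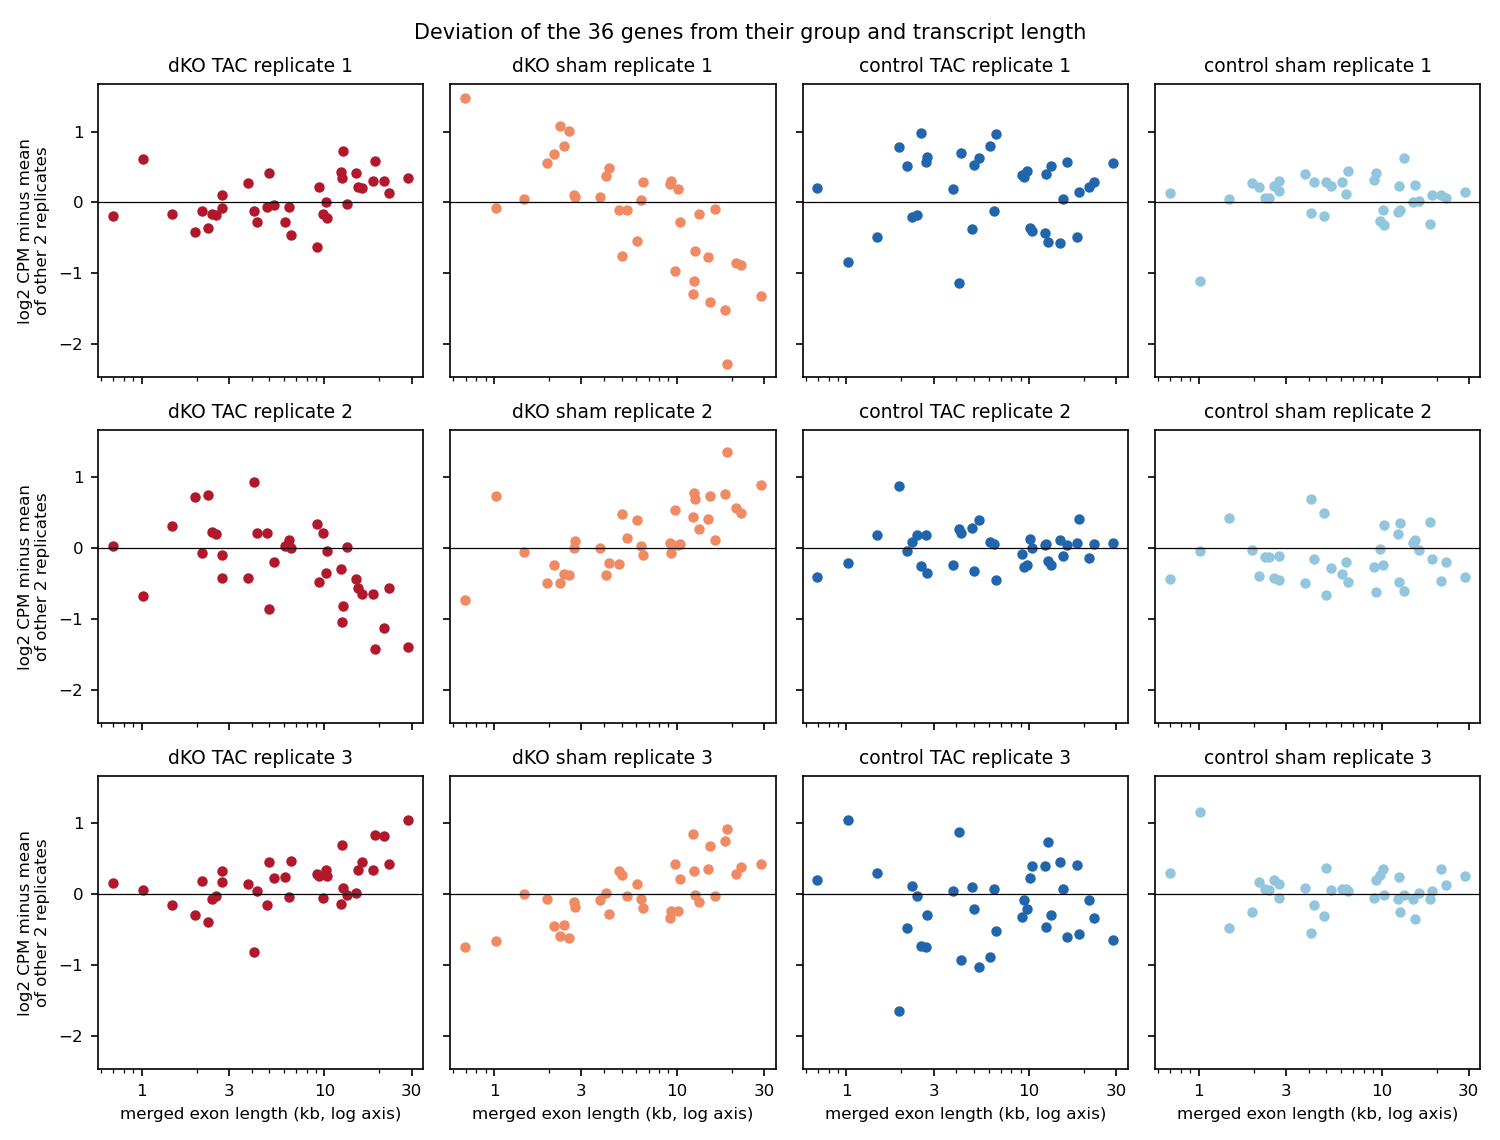
Deviation of each of the 36 genes (points) from the mean of the other 2 replicates of its group, in log2 CPM, against merged exon length in kb on a log axis, with 1 panel per library. Points fall with length in dKO TAC replicate 2 (Spearman rho -0.613) and dKO sham replicate 1 (-0.784), trend upward in the other dKO libraries, which are each compared with one of these, and show no trend in the control libraries (-0.105 to 0.006).

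The store and its pump dominated the transcripts of this set. Levels were divided by the kb of merged exons, which joins all annotated exons of a gene. That length can exceed the length of any single transcript, so different genes can be compared only roughly on this scale. Atp2a2, which encodes the cardiac SERCA pump, had mean levels in CPM per kb of 1051 in dKO TAC, 1789 in dKO sham, 1438 in control TAC and 2333 in control sham (3 libraries each). Pln, which encodes phospholamban, had mean levels in CPM per kb of 1072 in dKO TAC, 1631 in dKO sham, 996 in control TAC and 1723 in control sham. The calcium sensor S100a1 (712 to 1075 CPM per kb over the group means) came next by the mean over groups, then the calsequestrin Casq2, which buffers calcium in the store (294 to 398 CPM per kb), and the histidine-rich store protein Hrc (177 to 512 CPM per kb). The highest S100a1 mean, in dKO sham, includes length-skewed replicate 1 at 1302 CPM, against 470 and 466 CPM in replicates 2 and 3. In control sham the ryanodine receptor Ryr2 had 55.0 CPM per kb, the L-type pore subunit Cacna1c 14.3 and the exchanger Slc8a1 8.09. The lowest member was the neuroendocrine-type L-type channel Cacna1d, at 0.118 to 0.218 CPM per kb. Fkbp1b, which encodes the ryanodine receptor stabiliser FKBP12.6, had 0.183 to 1.08 CPM over the libraries, close to the floor, so its estimates are imprecise.

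**Figure D2:**
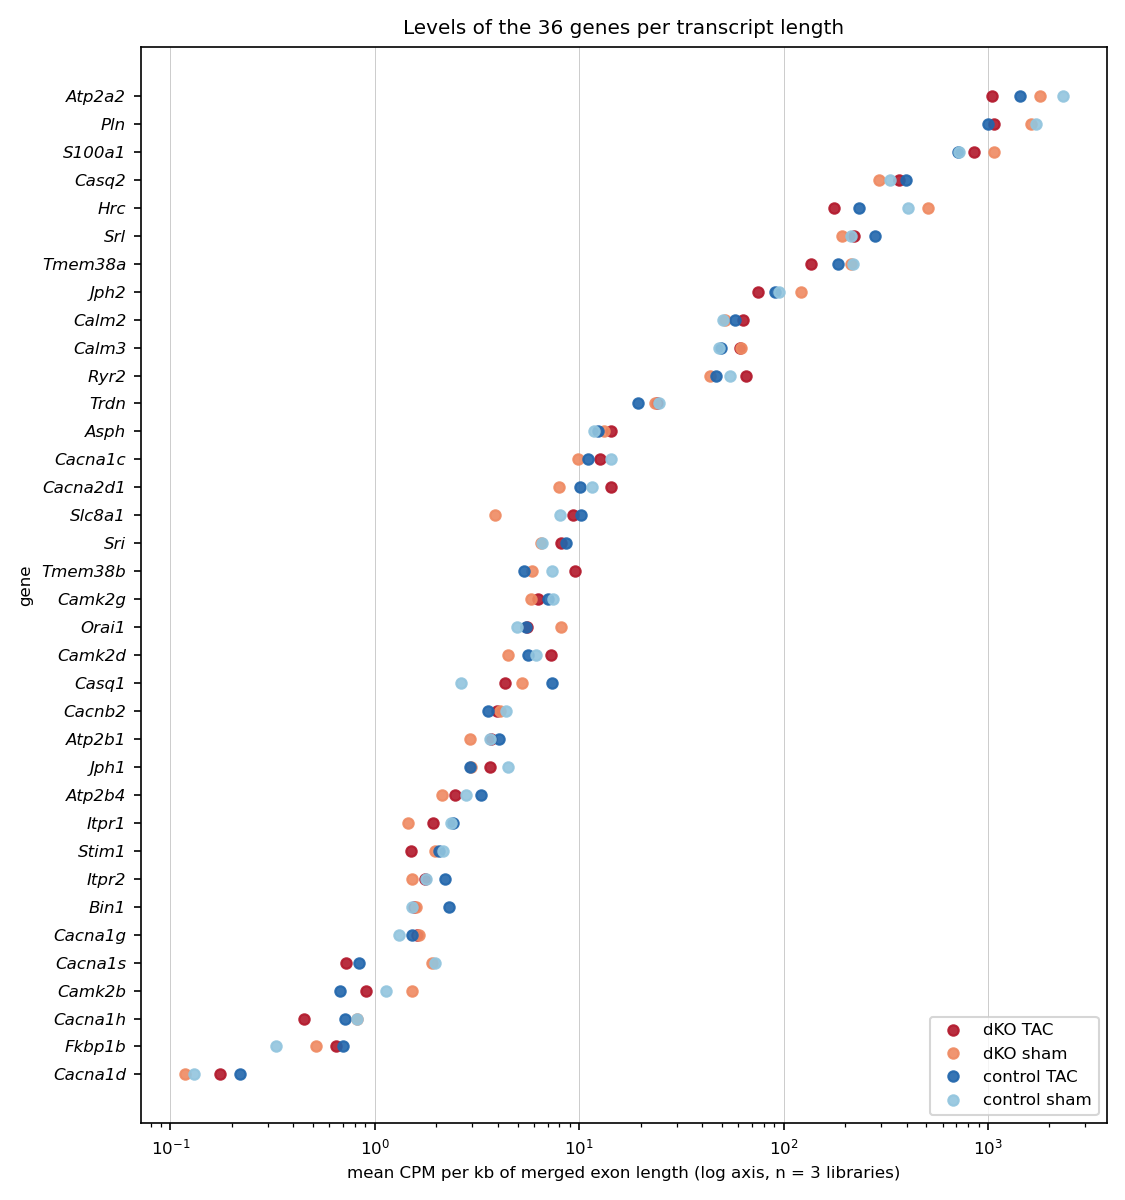
Mean level of each of the 36 genes in CPM per kb of merged exon length (horizontal log axis, n = 3 libraries per point), with the 4 groups as colours and genes ordered by their mean over groups. Levels span from Cacna1d at 0.118 to 0.218 CPM per kb up to Atp2a2 at 1051 to 2333 CPM per kb.

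The first comparison asked how pressure overload changed these genes. Averaged over both genotypes, 5 of the 36 genes fell after TAC, and the edgeR quasi-likelihood test with Benjamini-Hochberg adjustment called 7.08% of all 14712 tested genes lower. The 5 were the skeletal-type L-type channel Cacna1s, Hrc, Pln, Atp2a2 and the kinase subunit gene Camk2b, and 0 of the 36 rose (9.53% of all genes rose). The median log2 change was 0.09 over the 36 genes and -0.01 over all genes, with 21 positive and 15 negative estimates. In dKO hearts alone 1 gene rose (4.2% of all genes) and 2 fell (3.19%), and in control hearts alone 0 rose (1.9%) and 1 fell (0.347%). At an unadjusted p under 0.05 the counts were 12 of 36 in dKO (33.3%, against 27.6% of all genes) and 7 in control (19.4%, against 16.9%). Comparisons within each genotype use separate libraries, and the average uses all 12. In bulk RNA, fewer cells of a type and less RNA per cell cannot be told apart. The 12 fibroblast markers, all above 0 in each group, summed to 3390 to 4345 CPM in dKO TAC, 1125 to 1571 in dKO sham, 1564 to 10753 in control TAC and 1015 to 1817 in control sham. Averaged over genotypes, edgeR called 7 of these 12 markers higher after TAC (9.53% of all genes) and 1, Gsn, lower (7.08%), and 4 did not pass. The sum therefore does not stand for each marker. The part of fibroblasts in the changes of the 36 genes was not tested.

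Cacna1s, on chromosome 1 from 136052750 to 136119822 (GRCm38, plus strand), encodes the voltage sensor subunit best known from skeletal muscle. It had 3.75, 4.64 and 5.75 CPM in dKO TAC, 14.1, 11.8 and 11.3 in dKO sham, 8.16, 4.23 and 4.11 in control TAC and 15.6, 10.2 and 12.9 in control sham. In both genotypes every TAC library lay below every sham library. It fell, with log2 changes of -1.40 ± 0.29 (SE) in dKO and -1.23 ± 0.29 in control, with adjusted p of 0.0157 and 0.0471 by edgeR with Benjamini-Hochberg adjustment, and of -1.32 ± 0.20 averaged over genotypes (adjusted p = 0.00159, edgeR). Among L-type pore subunits, counted per kb, its share was 5.92% ± 2.7 in dKO TAC, 17% ± 6.86 in dKO sham, 6.76% ± 2.06 in control TAC and 12% ± 1.62 in control sham (SD, n = 3). In dKO sham this share was 24.9% in length-skewed replicate 1, against 12.6% and 13.6% in replicates 2 and 3. The averaged call held when any 1 library was left out. The call within control was lost without any of 9 of the 12 libraries: edgeR Benjamini-Hochberg adjusted p was 0.178 to 0.209 without control TAC replicate 2 or 3 or control sham replicate 1 or 3, and 0.0623 to 0.0703 without dKO TAC replicate 1, 2 or 3 or dKO sham replicate 2 or 3. The call within dKO was lost without dKO TAC replicate 1 (0.0899).

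Hrc, on chromosome 7 from 45335290 to 45338974 (plus strand), encodes a calcium-binding protein of the store lumen that interacts with the pump and with triadin. It had 416, 497 and 448 CPM in dKO TAC, 1969.9, 1039 and 932 in dKO sham, 895, 506 and 405 in control TAC and 1153, 853 and 1134 in control sham. The dKO groups did not overlap, dKO sham replicate 1 was the highest library of all, and in control only TAC replicate 1 reached into the sham range. Hrc fell, with log2 changes of -1.53 ± 0.34 in dKO (Benjamini-Hochberg adjusted p = 0.0216, edgeR) and -1.17 ± 0.24 averaged over genotypes (adjusted p = 0.0074, edgeR), while the estimate in control was -0.80 ± 0.34 and did not pass (adjusted p = 0.248, edgeR). Without the length-skewed pair, the dKO estimate was -1.19 (Benjamini-Hochberg adjusted p = 0.0499, edgeR). The call within dKO was lost without dKO TAC replicate 1 (0.108) or replicate 3 (0.0838), and the averaged call held without any 1 library. Per kb, the ratio of Hrc to Casq2 was 0.498 ± 0.133 in dKO TAC, 1.72 ± 0.661 in dKO sham, 0.581 ± 0.112 in control TAC and 1.23 ± 0.156 in control sham (SD, n = 3). In dKO sham this ratio was 2.48 in length-skewed replicate 1, against 1.38 and 1.30 in replicates 2 and 3.

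Pln, on chromosome 10 from 53337667 to 53345987 (plus strand), encodes the small membrane protein that inhibits SERCA until it is phosphorylated. It had 2852, 2826 and 3197 CPM in dKO TAC, 4647, 4712 and 4142 in dKO sham, 3611, 2293 and 2343 in control TAC and 5398, 3835 and 5028 in control sham. All 6 TAC libraries lay below all 6 sham libraries, which was so for 2 of the 36 genes in that direction, Pln and Cacna1s, and for 2.71% of all genes tested. Pln fell, with a log2 change of -0.70 ± 0.17 averaged over genotypes (Benjamini-Hochberg adjusted p = 0.0184, edgeR), and the estimates of -0.61 ± 0.24 in dKO and -0.79 ± 0.25 in control did not pass on their own (adjusted p = 0.137 and 0.123, edgeR). The averaged call was lost without dKO TAC replicate 1, control TAC replicate 2 or control sham replicate 1 or 3 (edgeR, Benjamini-Hochberg adjusted p of 0.0539 to 0.0606). Of its 2759 nt of exons, 1785 nt overlap exons of Cep85l and Gm47644 on the other strand. The library kit marks strand, but no source used here gives the strand setting of the counting, so the reads of these genes may not have been separated. Exons of Cacna1s likewise overlap those of Gm37759 by 1309 nt, and exons of Asph those of Clvs1 and Gm25677 by 2368 nt.

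Atp2a2, on chromosome 5 from 122453513 to 122502225 (minus strand), had 5602, 6450.1 and 7115 CPM in dKO TAC, 8315, 12861 and 11466 in dKO sham, 12011, 8684 and 5530.0 in control TAC and 16106, 11877 and 14575 in control sham. The dKO groups did not overlap, and in control TAC replicate 1 lay above the lowest sham library. The averaged change was -0.73 ± 0.22 (Benjamini-Hochberg adjusted p = 0.0418, edgeR), and the changes within dKO (-0.77 ± 0.31) and control (-0.70 ± 0.31) did not pass (adjusted p = 0.14 and 0.282, edgeR). This call was the least stable of the 5: it was kept only without control TAC replicate 1, dKO sham replicate 1 or control sham replicate 2, and the edgeR Benjamini-Hochberg adjusted p without any 1 of the other 9 libraries was 0.0598 to 0.111. With the length-skewed pair left out it was -0.82 (Benjamini-Hochberg adjusted p = 0.0324, edgeR). The ratio of Pln to Atp2a2 per kb was 1.03 ± 0.084 in dKO TAC, 0.945 ± 0.248 in dKO sham, 0.726 ± 0.184 in control TAC and 0.737 ± 0.0244 in control sham (SD, n = 3). By library this ratio of inhibitor to pump was 1.12, 0.966 and 0.990 in dKO TAC and 1.23, 0.807 and 0.796 in dKO sham, where the highest value is the length-skewed library. The dKO groups overlapped only through that library, and the control groups overlapped.

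Camk2b, on chromosome 11 from 5969644 to 6066362 (minus strand), encodes a minor cardiac subunit of calcium/calmodulin-dependent kinase II. It had 6.05, 9.47 and 9.23 CPM in dKO TAC, 15.5, 14.2 and 11.8 in dKO sham, 7.33, 5.9 and 5.28 in control TAC and 11.9, 9.07 and 10.0 in control sham. TAC and sham did not overlap in either genotype. It fell, with a log2 change of -0.74 ± 0.16 averaged over genotypes (Benjamini-Hochberg adjusted p = 0.00832, edgeR), with near-equal estimates of -0.75 ± 0.22 in dKO and -0.74 ± 0.22 in control that missed the threshold (adjusted p = 0.0595 and 0.11, edgeR). The averaged call held without any 1 library. Its share of the kinase family per kb was 5.06% ± 1.2 in dKO TAC, 8.61% ± 1.47 in dKO sham, 3.79% ± 0.351 in control TAC and 5.35% ± 0.608 in control sham (SD, n = 3). Camk2d, generally described as the main cardiac subunit, had a share of 40.5% ± 6.58 in dKO TAC, 25.1% ± 6.84 in dKO sham, 31.6% ± 2.35 in control TAC and 29.2% ± 0.849 in control sham. In dKO TAC this share was 33.0% in length-skewed replicate 2, against 43.6% and 45.0% in replicates 1 and 3. In dKO sham it was 17.2% in length-skewed replicate 1, against 28.4% and 29.7% in replicates 2 and 3. On this scale, which divides by its 22.5 kb of merged exons, Camk2d was not the highest in 3 of the 4 groups. Camk2g had 35.2% ± 3.87 in dKO TAC, 33.1% ± 2.41 in dKO sham, 39.9% ± 4.8 in control TAC and 35% ± 1.64 in control sham, and Camk2a 19.2% ± 2.04 in dKO TAC, 33.2% ± 3.29 in dKO sham, 24.7% ± 3 in control TAC and 30.5% ± 2.85 in control sham.

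**Figure D3:**
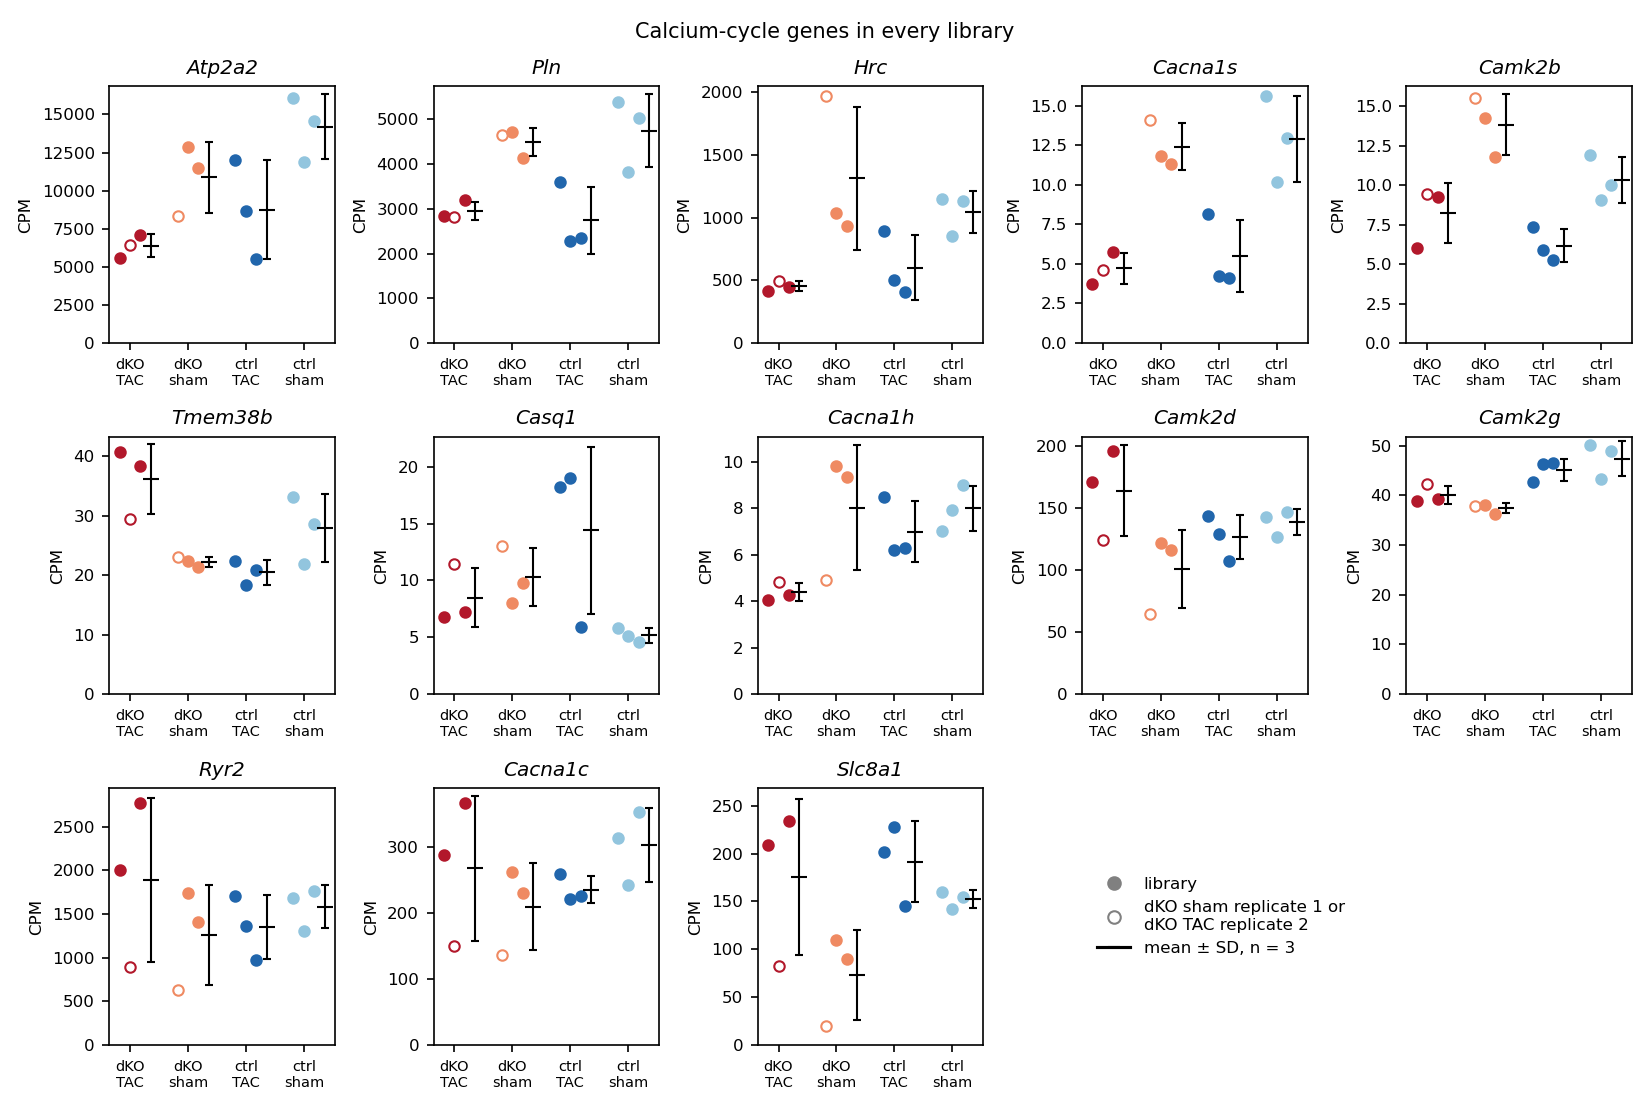
CPM in every library (points, linear axes from 0) of the 6 genes called in at least 1 comparison, the 4 with the next smallest p and 3 core genes of the cycle, with the mean ± SD of 3 libraries beside each group and open points for the length-skewed pair. Cacna1s and Pln show all 6 TAC libraries below all 6 sham libraries, and Tmem38b is highest in dKO TAC, at 29.5 to 40.7 CPM.

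The promoters of the genes that fell together were read for shared letters, since all 4 with a sequence moved in the same direction. RefSeq (GRCm38.p6) gave a promoter for 24 of the 36 genes, including Cacna1s, Hrc, Pln and Camk2b of the 5 lowered genes. The 250 bases before the RefSeq transcription start are printed for these 4, 5′ to 3′ on the strand of the gene, with capitals marking GGGCGG (the GC box) and CATTCC (the core bound by TEAD factors) on either strand. RefSeq starts differ from the GENCODE gene bounds given above. The Camk2b window lies wholly inside those bounds, the Cacna1s and Pln windows reach partly into them, and the Hrc window lies outside. They are chr1:136052561-136052810 (plus strand) for Cacna1s, chr7:45335019-45335268 (plus) for Hrc, chr10:53337436-53337685 (plus) for Pln and chr11:6065749-6065998 (minus) for Camk2b.
Cacna1s: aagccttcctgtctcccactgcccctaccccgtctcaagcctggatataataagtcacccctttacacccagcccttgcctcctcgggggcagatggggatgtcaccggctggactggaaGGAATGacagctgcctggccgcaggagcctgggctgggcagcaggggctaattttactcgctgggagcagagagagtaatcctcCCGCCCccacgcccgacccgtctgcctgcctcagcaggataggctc
Hrc: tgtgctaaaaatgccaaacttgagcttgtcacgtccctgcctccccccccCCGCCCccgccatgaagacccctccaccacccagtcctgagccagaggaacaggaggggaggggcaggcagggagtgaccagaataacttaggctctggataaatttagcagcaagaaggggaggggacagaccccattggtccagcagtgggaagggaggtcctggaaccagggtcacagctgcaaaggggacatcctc
Pln: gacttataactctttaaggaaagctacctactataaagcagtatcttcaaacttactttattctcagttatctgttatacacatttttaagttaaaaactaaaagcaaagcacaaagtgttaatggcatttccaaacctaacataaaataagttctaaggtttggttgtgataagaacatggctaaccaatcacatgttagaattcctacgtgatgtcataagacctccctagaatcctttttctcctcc
Camk2b: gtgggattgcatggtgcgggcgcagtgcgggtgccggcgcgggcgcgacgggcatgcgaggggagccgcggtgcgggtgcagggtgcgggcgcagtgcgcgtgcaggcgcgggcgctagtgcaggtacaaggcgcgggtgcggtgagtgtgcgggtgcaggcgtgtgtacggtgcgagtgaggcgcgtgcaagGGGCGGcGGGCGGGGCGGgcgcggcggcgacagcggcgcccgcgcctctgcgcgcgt
GGGCGG was found once in Cacna1s, once in Hrc, 3 times in Camk2b (a pair of them sharing 1 base) and not in Pln. It was in 17 of the 30 windows of member genes, against 32.7% of all 32851 promoter windows of this length. By gene, 15 of the 24 member genes held it in at least 1 window. CATTCC was found in Cacna1s only of these 4, in 4 of the 30 windows of member genes (4 of the 24 genes) and in 12.6% of all windows. The CArG box of serum response factor was found in 0 of the 30 windows of member genes and in 1.47% of all windows. A match or its lack describes these letters in these windows and nothing about binding. GC content was 62.4% for Cacna1s, 59.6% for Hrc, 32.8% for Pln and 78.4% for Camk2b.

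Tmem38b was the 1 gene of the set that rose in a called comparison. It lies on chromosome 4 from 53826045 to 53862019 (plus strand) and encodes TRIC-B, a channel for potassium counter-ions in the store membrane that is expressed in many tissues. It had 40.7, 29.5 and 38.3 CPM in dKO TAC, 23.1, 22.3 and 21.4 in dKO sham, 22.3, 18.3 and 20.8 in control TAC and 33.2, 21.9 and 28.7 in control sham. All dKO TAC libraries lay above all dKO sham and all control TAC libraries, whereas control TAC and control sham overlapped. It rose, with a log2 change of 0.70 ± 0.18 in dKO after TAC (Benjamini-Hochberg adjusted p = 0.0406, edgeR), against an estimate of -0.45 ± 0.18 in control (adjusted p = 0.237, edgeR). Its partner Tmem38a, the muscle-enriched TRIC-A, had 277, 284 and 319 CPM in dKO TAC, 609, 400.2 and 362 in dKO sham, 495, 382 and 312 in control TAC and 512, 385 and 501 in control sham, and the share of Tmem38b in the pair, per kb, was 6.49% ± 1.07 in dKO TAC, 2.78% ± 0.608 in dKO sham, 2.9% ± 0.623 in control TAC and 3.24% ± 0.236 in control sham (SD, n = 3). The dKO call for Tmem38b was lost without dKO TAC replicate 1 or 3, any 1 dKO sham library, control TAC replicate 2 or control sham replicate 1 or 3 (edgeR, Benjamini-Hochberg adjusted p of 0.0514 to 0.182). Without the length-skewed pair it was 0.85 (Benjamini-Hochberg adjusted p = 0.0209, edgeR).

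The remaining entry genes did not pass after TAC in either genotype. Cacna1c, the pore of the main cardiac L-type channel, had 288, 149 and 366 CPM in dKO TAC, 136, 263 and 230.3 in dKO sham, 259, 221 and 226 in control TAC and 314, 243 and 352 in control sham. Its estimates were 0.35 ± 0.32 in dKO and -0.36 ± 0.32 in control, and the groups overlapped. Its merged exons are 21.2 kb long, and the length-skewed pair were the lowest of their group. The T-type channel Cacna1h had 4.06, 4.83 and 4.27 CPM in dKO TAC, 4.91, 9.81 and 9.33 in dKO sham, 8.49, 6.19 and 6.26 in control TAC and 7.03, 7.91 and 9 in control sham. Every dKO TAC library was below every dKO sham library, with dKO sham replicate 1 far under the other dKO sham libraries, and the dKO estimate of -0.88 ± 0.26 missed the threshold (Benjamini-Hochberg adjusted p = 0.0607, edgeR). With the length-skewed pair left out it was -1.20 and passed (Benjamini-Hochberg adjusted p = 0.00942, edgeR). The other T-type gene, Cacna1g, ranged from 11.9 to 19 CPM over all libraries, with estimates of -0.02 in dKO and 0.21 in control. The auxiliary subunits Cacnb2 (-0.06 in dKO and -0.29 in control) and Cacna2d1 (0.83 and -0.19 in the same order) and the low channel Cacna1d (0.56 and 0.75) did not pass either.

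Of the 9 release genes, Hrc was the only one called. Ryr2, the release channel itself, had 2007, 899 and 2772 CPM in dKO TAC, 629, 1745 and 1406 in dKO sham, 1706, 1367 and 979 in control TAC and 1682, 1301 and 1763 in control sham. Its groups overlapped in both genotypes, and the estimates were 0.59 ± 0.42 in dKO and -0.23 ± 0.42 in control. With the length trend of each library removed, the dKO estimate was 0.05. Casq1, the skeletal muscle calsequestrin, had 6.79, 11.5 and 7.18 CPM in dKO TAC, 13.1, 8.05 and 9.78 in dKO sham, 18.3, 19.1 and 5.94 in control TAC and 5.85, 5.09 and 4.57 in control sham. All control TAC libraries lay above all control sham libraries, with replicate 3 at 5.94 CPM against a highest sham value of 5.85 CPM, and the estimate of 1.48 ± 0.39 in control did not pass (Benjamini-Hochberg adjusted p = 0.0735, edgeR). It passed with the length trend removed, at 1.53 (Benjamini-Hochberg adjusted p = 0.0364, edgeR), without control TAC replicate 3 (1.86, 0.0209) and without dKO sham replicate 1 (1.48, 0.0475). Acta1, skeletal actin, was high in the same control TAC libraries, at 3152, 3536 and 1657 CPM, while the other 9 skeletal muscle markers summed to 2.1 to 6.36 CPM in control TAC and 2.1 to 2.69 CPM in control sham. Their part in the Casq1 values was not tested. Casq2 made up 97.7% to 99.3% of calsequestrin transcripts per kb in every library, with estimates of 0.32 in dKO and 0.26 in control. The anchoring proteins triadin (Trdn, 0.05 in dKO and -0.34 in control) and junctin, a product of Asph (0.12 and 0.07), and the receptor modulators Sri (0.32 and 0.38), S100a1 (-0.33 and -0.02) and Fkbp1b (0.30 and 1.06) did not pass.

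Junction genes, which hold the surface membrane and the store together, gave no call. Jph2, the cardiac junctophilin, had 279.5, 350.4 and 324 CPM in dKO TAC, 639, 464 and 449 in dKO sham, 513, 411 and 242 in control TAC and 463, 378 and 377 in control sham. The dKO groups did not overlap and the control groups did, with estimates of -0.70 ± 0.26 and -0.06 ± 0.26 (Benjamini-Hochberg adjusted p of 0.111 and 0.951, edgeR). Jph1, the junctophilin of skeletal muscle, had estimates of 0.31 ± 0.29 in dKO and -0.62 ± 0.29 in control, and Bin1, which bends the membrane into transverse tubules, -0.03 ± 0.37 and 0.60 ± 0.37. In the uptake role, Srl, which encodes the store calcium-binder sarcalumenin, had estimates of 0.19 in dKO and 0.38 in control, and Tmem38a -0.64 and -0.23, without passing.

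Among extrusion genes, Slc8a1, the cardiac sodium-calcium exchanger, had 209, 82.4 and 234 CPM in dKO TAC, 20.4, 109.7 and 89.5 in dKO sham, 201, 228 and 145 in control TAC and 160.1, 142 and 155 in control sham. The lowest library of each dKO group was the length-skewed one, at 82.4 CPM in dKO TAC replicate 2 and 20.4 CPM in dKO sham replicate 1. Its estimates of 1.26 ± 0.50 in dKO and 0.33 ± 0.50 in control did not pass (Benjamini-Hochberg adjusted p of 0.134 and 0.826, edgeR). Without both of these libraries it was called higher in dKO, at 1.15 (Benjamini-Hochberg adjusted p = 0.0113, edgeR), and averaged over genotypes, at 0.74 (adjusted p = 0.00584, edgeR). The plasma membrane pumps Atp2b1 (0.34 in dKO and 0.14 in control) and Atp2b4 (0.20 and 0.25) did not pass.

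Of the calmodulin and kinase genes, Camk2d, which encodes a subunit of the kinase that phosphorylates phospholamban and the ryanodine receptor, had 171, 125 and 197 CPM in dKO TAC, 64.3, 122 and 116 in dKO sham, 144, 129 and 108 in control TAC and 143, 127 and 147 in control sham. Every dKO TAC library was above every dKO sham library, and the control groups overlapped. The dKO estimate of 0.70 ± 0.25 did not pass (Benjamini-Hochberg adjusted p = 0.0969, edgeR), was called without the length-skewed pair (0.63, adjusted p = 0.0343, edgeR) and was 0.26 with the length trend removed. Camk2g had 38.9, 42.2 and 39.2 CPM in dKO TAC, 37.9, 38 and 36.2 in dKO sham, 42.6, 46.3 and 46.6 in control TAC and 50.0, 43.3 and 48.9 in control sham, with estimates of 0.10 in dKO and -0.07 in control. Calm2 and Calm3, which encode the same calmodulin protein, had estimates of 0.29 and -0.00 in dKO and 0.20 and 0.03 in control. The IP3 receptors Itpr1 and Itpr2, the store sensor Stim1 and its channel Orai1 did not pass after TAC. Their estimates were 0.41, 0.22, -0.38 and -0.54 in dKO and 0.03, 0.30, -0.07 and 0.15 in control.

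**Figure D4:**
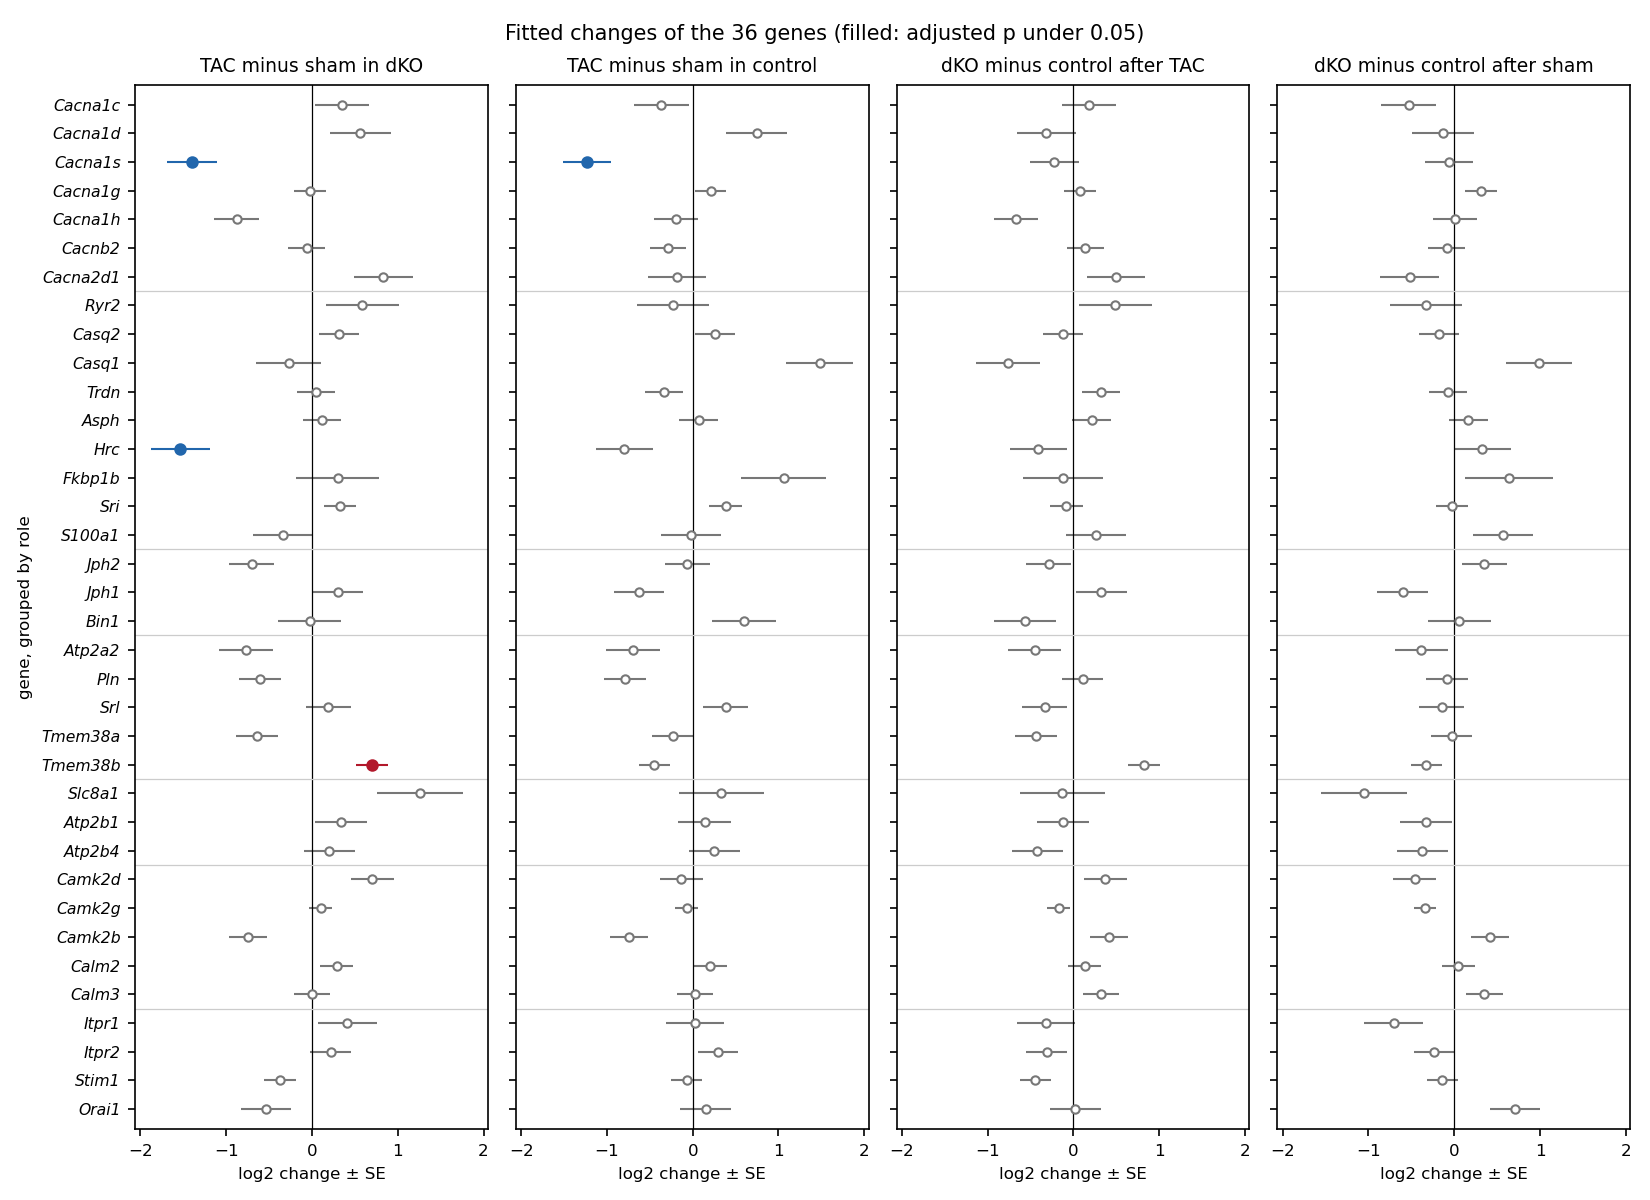
Fitted log2 changes with SE (bars) of the 36 genes in 4 comparisons, grouped by role from entry at the top to store-operated entry at the bottom, with filled points where the edgeR Benjamini-Hochberg adjusted p was under 0.05. Cacna1s is filled in both TAC comparisons, Hrc and Tmem38b are filled in the dKO one, and no point is filled in the comparisons of genotypes.

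Groups without overlap were more frequent than calls. In dKO, 5 of 36 genes had every TAC library above every sham library (16.2% of all genes) and 9 had every one below (14.5% of all genes), and in control 2 were above (11.0%) and 3 below (10.8%). These shares are 13.9% and 25.0% of the set in dKO and 5.56% and 8.33% in control. Without the length-skewed pair, 7 of 36 genes were called in dKO after TAC, against 10.6% of all genes in that fit: Camk2d, Tmem38b, Cacna2d1 and Slc8a1 higher, and Cacna1s, Hrc and Cacna1h lower. In control 1 was called (5.17% of all genes), and averaged over genotypes 7 (21.9%). With 2 libraries left in each dKO group, that fit rests on fewer libraries.

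The second comparison asked whether loss of the MRTFs changed these genes. After TAC, 0 of 36 genes were called between dKO and control by edgeR with Benjamini-Hochberg adjustment (0.428% of all genes), 3 had an unadjusted p under 0.05 (8.87% of all genes), and DESeq2 called 1 (2.18% of all genes), limma-voom 0 (0.496%) and limma-voom with quality weights 12 (21.4%). The 3 were Tmem38b, with a positive estimate of 0.82 ± 0.18 (Benjamini-Hochberg adjusted p = 0.0904, edgeR), and Stim1 (-0.44 ± 0.18) and Cacna1h (-0.67 ± 0.26), with negative ones. Tmem38b passed without the length-skewed pair, at 0.95 (Benjamini-Hochberg adjusted p = 0.0182, edgeR), where it was 1 of 36 against 3.4% of all genes, and without dKO sham replicate 1 alone (0.0381). DESeq2 gave it an adjusted p of 0.00639. The median of the 36 genes was -0.12, against -0.03 for all genes, and was 0.03 without dKO TAC replicate 2.

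After sham, 0 of 36 genes were called between dKO and control (edgeR, Benjamini-Hochberg, 0.068% of all genes), 3 had an unadjusted p under 0.05 (9.25% of all genes), and DESeq2 called 0 (0.421% of all genes), limma-voom 0 (0.0816%) and limma-voom with quality weights 2 (3.45%). The 3 were Casq1 (0.99 ± 0.39) and Orai1 (0.71 ± 0.30) with positive estimates and Camk2g (-0.34 ± 0.13) with a negative one. Orai1 had 28.7, 13.9 and 13.3 CPM in dKO sham and 11.6, 10.7 and 11.7 CPM in control sham, so its highest value came from dKO sham replicate 1, and its merged exons are short at 2.29 kb. Within dKO sham, Casq1 was also highest in replicate 1, at 13.1 CPM against 8.05 and 9.78 CPM in replicates 2 and 3. With the length-skewed pair left out the Orai1 estimate was 0.26. In that fit Orai1, Camk2g and Slc8a1 had an unadjusted p under 0.05 by edgeR (3 of 36, against 6.54% of all genes). Casq1 was not among them. Over all 12 libraries Slc8a1 had the lowest estimate, -1.05 ± 0.50 (Benjamini-Hochberg adjusted p = 0.507, edgeR), and -0.61 without the pair. Averaged over surgeries, 0 of 36 genes were called by edgeR (0.585% of all genes), 4 had an unadjusted p under 0.05 (12.9% of all genes), and DESeq2, limma-voom and limma-voom with quality weights called 0, 0 and 4 (2.37%, 0.551% and 10.8% of all genes). These 4 by edgeR were Camk2b (0.42 ± 0.16) and Calm3 (0.34 ± 0.15) with positive estimates, and Camk2g (-0.26 ± 0.09) and Stim1 (-0.29 ± 0.13) with negative ones. Without the length-skewed pair, edgeR gave an unadjusted p under 0.05 for Camk2g, Tmem38a and Tmem38b (3 of 36, against 13.6% of all genes). Camk2b, Calm3 and Stim1 were not among them. Calm3 had 208 CPM in dKO sham replicate 1, against 122 and 118 CPM in replicates 2 and 3.

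Whether the response to TAC differed between genotypes was tested as an interaction. By edgeR with Benjamini-Hochberg adjustment, 0 of 36 genes and 0.0% of all genes were called, 4 of the 36 had an unadjusted p under 0.05 (4.74% of all genes), and DESeq2 called 0 (0.0748% of all genes), limma-voom 0 (0%) and limma-voom with quality weights 10 (17.0%). Tmem38b had the smallest p of the set, and its TAC effect in dKO less that in control was 1.15 ± 0.26 (unadjusted p = 0.000836, edgeR Benjamini-Hochberg adjusted p = 0.841). Casq1 had -1.75 ± 0.54, Jph1 0.93 ± 0.41 and Camk2d 0.84 ± 0.35. For the 5 genes that fell in the averaged comparison, the interaction estimates were -0.17 ± 0.40 for Cacna1s, -0.74 ± 0.47 for Hrc, 0.18 ± 0.34 for Pln, -0.07 ± 0.44 for Atp2a2 and -0.00 ± 0.34 for Camk2b, with adjusted p of 0.933, 0.841, 0.911, 0.978 and 1 by edgeR with Benjamini-Hochberg adjustment. With these SE, a p that misses the threshold does not show that the responses were alike.

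Other genes of the calcium pathway were followed through 4 lists of 86 genes, of which 77 were tested. In dKO after TAC 3 rose and 3 fell, and averaged over genotypes 9 rose and 7 fell. In control after TAC 0 passed by edgeR with Benjamini-Hochberg adjustment (2.25% of all genes). There DESeq2 called 5 (6.83% of all genes), limma-voom 0 (1.19%) and limma-voom with quality weights 45 (42.7%). The edgeR shares of all genes were 4.2% higher and 3.19% lower in dKO and 9.53% and 7.08% averaged over genotypes, against 3 of 77, 3 of 77, 9 of 77 and 7 of 77 here. Without the length-skewed pair, 10 rose and 5 fell in dKO, 2 rose and 2 fell in control, and 13 rose and 9 fell averaged over genotypes, of 78 tested. Of all genes in that fit, 5.93% rose and 4.66% fell in dKO, 3.36% rose and 1.81% fell in control, and 11.9% rose and 9.98% fell averaged over genotypes. With quality weights limma-voom called 42.7% of all genes for TAC in control. The regulatory subunit of protein kinase A Prkar1a had 1058, 819.5 and 1196 CPM in dKO TAC, 340.2, 456 and 467 in dKO sham, 538, 657 and 529 in control TAC and 379.5, 406 and 349 in control sham. It rose, with log2 changes of 1.28 ± 0.21 in dKO and 0.94 ± 0.15 averaged over genotypes (Benjamini-Hochberg adjusted p of 0.00645 and 0.00172, edgeR), and every dKO TAC library was above every other library. Gm34302, listed by RefSeq as the gene Strit1 for the SERCA-activating micropeptide DWORF, had 2.4, 5.86 and 2.38 CPM in dKO TAC, 26.3, 10.6 and 9.29 in dKO sham, 7.9, 2.84 and 2.84 in control TAC and 15.4, 9.84 and 11.6 in control sham. It fell, with log2 changes of -2.10 ± 0.53 in dKO and -1.77 ± 0.37 averaged over genotypes (Benjamini-Hochberg adjusted p of 0.0325 and 0.00787, edgeR), with no overlap between TAC and sham in either genotype.

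Further genes of these lists that rose in dKO were the store calcium-binder Calu (0.78 ± 0.18) and the second exchanger gene Slc8a2 (1.71 ± 0.47, at 0.184 to 2.1 CPM in the dKO libraries). The lowest of these Slc8a2 values, in dKO sham replicate 1, was at the floor of 3 counts in that library. Without the length-skewed pair Slc8a2 did not pass, at 1.32 (Benjamini-Hochberg adjusted p = 0.0735, edgeR). In dKO the genes that fell were the titin cap Tcap (-1.85 ± 0.50, and -0.89 without the length-skewed pair, the sham library of that pair being at 7346 CPM against 1747 and 1522) and the kinase subunit Camk2a (-0.77 ± 0.19). Averaged over genotypes, the channel subunits Cacnb1 (0.66 ± 0.19) and Cacnb3 (0.99 ± 0.27), the membrane repair gene Dysf (0.53 ± 0.14), the store-operated channel Orai2 (1.52 ± 0.42), the mitochondrial carrier Slc25a23 (0.57 ± 0.13) and the phosphatase subunit Ppp1cc (0.32 ± 0.10) rose as well. The channel subunit Cacng6 (-1.80 ± 0.42), Orai3 (-0.50 ± 0.15) and the anchoring protein Akap7 (-0.49 ± 0.14) fell. The averaged calls of Orai2 (1.49) and Cacnb3 (0.83) were lost without the length-skewed pair (Benjamini-Hochberg adjusted p of 0.0517 and 0.0778, edgeR), and the averaged Tcap change was -1.29 ± 0.35 with that pair and -0.82 without it. Of the 14 genes of mitochondrial calcium uptake, Slc25a23 was the only one called in any comparison. Between genotypes 0 of the 77 passed by edgeR over all 12 libraries in the 3 comparisons of dKO with control or in the interaction. DESeq2 called 1 after TAC (2.18% of all genes) and 3 averaged over surgeries (2.37%). With quality weights limma-voom called 17 after TAC (21.4%), 5 after sham (3.45%), 8 averaged over surgeries (10.8%) and 19 for the interaction (17%). Without the length-skewed pair edgeR called 2 higher (2.37% of all genes) and 1 lower (1.04%) after TAC. Prkar1a was among them (0.97, Benjamini-Hochberg adjusted p = 0.0102, edgeR). That fit called 1 averaged over surgeries (1.33% of all genes), Prkar1a (0.63, adjusted p = 0.021, edgeR). With the length trend removed edgeR called 2 averaged over surgeries (0.836% of all genes).

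Summed marker levels of the cells in these preparations were also compared. The highest fibroblast marker sum was in control TAC replicate 3. Of the 5 lowered genes, Atp2a2 (5530 CPM), Hrc (405 CPM), Cacna1s (4.11 CPM) and Camk2b (5.28 CPM) were at their lowest among control libraries there. So were genes of the set that were not called, among them Ryr2 (979 CPM), Casq2 (745 CPM) and Jph2 (242 CPM). Others, such as Itpr1 (52.8 CPM) and Bin1 (13.2 CPM), were at their highest among control libraries there. Pln was lowest in control TAC replicate 2 (2293 CPM, against 2343 CPM in replicate 3). This describes 1 library, and no link was tested. The 12 cardiomyocyte markers summed to 59580 to 68214 CPM in dKO TAC, 71245 to 167587 in dKO sham, 62164 to 98654 in control TAC and 71042 to 93578 in control sham. The highest of these sums was that of length-skewed dKO sham replicate 1, and dKO sham replicates 2 and 3 had 78259 and 71245 CPM. All 12 markers were above 0 in every group, and 1 of them, the muscle creatine kinase Ckm, fell in dKO after TAC, as did Ckm and the troponin Tnni3 averaged over genotypes. The 12 macrophage markers summed to 274 to 513 CPM in dKO TAC, 253 to 314 in dKO sham, 227 to 761 in control TAC and 160.4 to 349.5 in control sham. The 10 endothelial markers summed to 892 to 1319, 910.1 to 1807, 1312 to 1748 and 1226 to 1764 CPM in the same order of groups, and the 10 smooth muscle and pericyte markers to 4962 to 5516, 3158 to 5033, 3591 to 4561 and 3162 to 3219 CPM. Much of that last sum was Des, at 4084 to 4824, 1885 to 4377, 2521 to 3455 and 1444 to 1963 CPM in that order. Des was not called, and averaged over genotypes Cnn1 and Tagln rose after TAC while Kcnj8 and Abcc9 fell (edgeR). The sum therefore does not stand for the whole list. Of the 8 atrial markers, those other than Nppa, which the stressed ventricle also makes, summed to 19.9 to 27.9 CPM in dKO TAC, 49.1 to 177 in dKO sham, 86.9 to 241 in control TAC and 22.1 to 64.8 in control sham. Stard10 alone made 41.9 of the 49.1 CPM in dKO sham replicate 1. Averaged over genotypes, edgeR called Nppa and Dkk3 higher after TAC (9.53% of all genes) and Stard10 lower (7.08%). The other 4 of the 7 atrial markers tested did not pass. The atrial sum therefore does not stand for each marker. Of the skeletal markers, Myh4 was at 0 in dKO TAC and Myog in dKO sham. The part of these cells in the changes of the 36 genes was not tested.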

How the data were processed

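The authors deposited raw read counts per gene, in whole numbers, for 12 libraries. The submitters' processing notes name Trimmomatic 0.36, STAR 2.5.2b, featureCounts of Subread 1.5.0p3 and GRCm38.p5, with no roles. No source used here gives the strand setting or gene annotation. Per the labels' protocols, hearts were digested on a Langendorff apparatus, heart muscle cells were enriched by settling under gravity, and stranded mRNA libraries were read as single ends.

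Counts were fitted with edgeR 4.0.16 (R 4.3.3; TMM, filterByExpr, quasi-likelihood F test, 1 mean per group, 8 residual degrees of freedom), with Benjamini-Hochberg adjustment over 14712 genes and calls under 0.05. Levels are CPM. Alternatives used limma 3.58.1 and DESeq2 1.42.0, other normalization, filters and samples, a replicate block and removal of the length trend. The fit was tested on simulated data. Exon lengths and coordinates are from GENCODE M21 (GRCm38). Floors cover counting error only. Replicates of a group all differed by more than sampling noise. The members and lists were chosen with earlier results of these data known. Values per library are given for called members, for those with the smallest p up to 10 genes, and for Ryr2, Atp2a2, Pln, Cacna1c and Slc8a1, and of each pathway list up to 5 called genes a comparison are named. Tmem38a, Jph2, Orai1 and the pathway genes with values per library were chosen after their values were seen.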

Additional observations from a re-analysis of the deposited data

Results flagged for a closer look

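In 3 of the 36 genes every TAC library lay on one side of its own sham mean in dKO and on the other side in control, a pattern met by 685 of the 14712 tested genes (4.66%). Tmem38b differed in its TAC effect, dKO over control, by 1.15 on the log2 scale, Camk2g by 0.17 and Orai1 by -0.69. By edgeR, none of these differences passed (Benjamini-Hochberg adjusted p of 0.841, 0.857 and 0.841). The unadjusted p was 0.000836 for Tmem38b, 0.373 for Camk2g and 0.124 for Orai1. With the length-skewed pair left out, the differences were 1.30, 0.14 and -0.54 (edgeR; Benjamini-Hochberg adjusted p of 0.103, 0.681 and 0.216).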

How the results depend on the processing

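With RLE scaling, nuclear genes only and limma-voom, the counts of called members stayed within 1.5 times of the edgeR values in all 7 comparisons. For TAC in control, where edgeR called 1 of 36, the count was 2 with no filter (3.32% of all genes), 4 with DESeq2 (6.83%), 18 with limma-voom and quality weights (42.7%), 0 with only the groups compared (0.0142%) and 2 with the length trend removed (2.98%). For TAC in dKO (3 called) it was 8 with DESeq2 (16.2% of all genes), 16 with quality weights (40.6%), 5 with the length trend removed (10.4%) and 7 (10.6%) without the length-skewed pair (dKO TAC replicate 2 and dKO sham replicate 1). For TAC averaged over genotypes (5 called) it was 20 with quality weights (51.9% of all genes) and 8 with the length trend removed (20.2%). Between genotypes and in the interaction (0 called), quality weights gave 2 after sham, 12 after TAC, 10 for the interaction and 4 averaged over surgeries, and after TAC DESeq2 and the fit without that pair gave 1 each. The weights were lowest for dKO sham replicate 1 (0.082). Leaving out 1 library at a time gave 0 to 3 for TAC in control, 0 to 3 for TAC in dKO, 3 to 7 averaged over genotypes, 0 to 1 for dKO against control after TAC, and 0 to 0 for the other 3 comparisons. TAC in dKO was 0 without dKO TAC replicate 1 and 1 without replicate 3. The averaged count was 3 without control sham replicate 1 or 3, control TAC replicate 2 or dKO TAC replicate 1. For TAC in control the count was 3 without control TAC replicate 1, 2 without dKO sham replicate 1, and 0 without any 1 library but these, control TAC replicate 3 and control sham replicate 2. The share of all genes called is not given for the fits without 1 library. These counts therefore cannot be told apart from a shift over all genes.

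The Cacna1c estimate for TAC in dKO, 0.35, was -0.14 with the length trend removed, the 1 sign change among the single-gene values compared. The median over the 36 genes changed sign when 1 library was left out for dKO against control after TAC (-0.13 to 0.03), averaged over surgeries (-0.12 to 0.01) and for the interaction (-0.06 to 0.08). With the length trend removed it also did so for TAC in dKO (-0.01 in place of 0.11) and for dKO against control after sham (0.03 in place of -0.08). Same-numbered libraries had deviation correlations of -0.474 to 0.350, so the numbers were not taken to pair samples. With the replicate block, 0 members were called for TAC in control (1.71% of all genes), 3 in dKO (6.37%) and 4 averaged over genotypes (15%). The cause of these shifts was not tested. Depth limits Fkbp1b, which lies near 3 counts in its lowest library, and the pathway gene Slc8a2, which had 3 counts in dKO sham replicate 1. Single libraries were not left out for the pathway genes outside the 36.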
